A study of Mus musculus with 5 samples.

Results

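The albumin locus of the mouse holds 3 genes of one family in the order Alb, Afp and Afm, and its loading with RNA polymerase II was followed here through 5 tissues. It was taken as a window of 120 kb on chromosome 5 from 90880001 to 91000000 in the deposited coordinates, read as assembly mm9, and cut into 120 bins of 1 kb out of 2641863 such bins in the genome. The window was picked with the liver reads of these libraries known, so its height in liver is a description and not a finding. Adult FVB mice gave liver, kidney, lung, brain and spleen, and chromatin of each freshly dissected tissue was precipitated with an Abcam antibody to RNA polymerase II and sequenced. There was 1 library per tissue, so no test between tissues was possible. No input library was used here, and intervals are 95% intervals that cover counting error only. Because the reads carry no molecular identifiers, copies of 1 molecule can be counted more than once. A dissected tissue is a mixture, so polymerase on a gene in fewer cells and less polymerase per cell cannot be told apart.

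Alb encodes serum albumin, the main protein of blood plasma, which hepatocytes make in bulk. Afp encodes alpha-fetoprotein, the plasma carrier of the fetus, made by yolk sac and fetal liver and shut down around birth. Afm encodes afamin, a plasma glycoprotein that binds vitamin E. The genes lie on the same strand and arose by duplication, and their promoters are known targets of liver transcription factors such as HNF1. Gene bounds were approximate positions rounded to 1 kb, from general knowledge of this assembly and not from a file: Alb from 90890000 to 90906000, Afp from 90920000 to 90938000 and Afm from 90948000 to 90983000. A promoter is the 1 kb to both sides of the start, the body runs from 1 kb after the start to the end, and the 3′ flank is the 5 kb after the end.

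The 3 promoters are shown because their genes carried very different amounts of polymerase in the same livers. They are the 250 bases before the RefSeq start of each gene on chromosome 5, plus strand, from RefSeq on GRCm38.p6, written 5′ to 3′. Capitals mark matches, on either strand, to 4 motifs. These are TATAAA for the usual TATA box, CCAAT for the box of that name, GTTAAT for a part of the HNF1 site and TGTTTAC for the core of FOXA sites. The RefSeq start need not be the start used in these tissues.
Alb: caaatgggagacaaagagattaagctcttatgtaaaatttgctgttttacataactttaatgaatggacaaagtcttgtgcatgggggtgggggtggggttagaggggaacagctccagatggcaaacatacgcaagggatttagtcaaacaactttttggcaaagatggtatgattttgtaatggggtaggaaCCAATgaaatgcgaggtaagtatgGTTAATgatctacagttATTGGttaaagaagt
Afp: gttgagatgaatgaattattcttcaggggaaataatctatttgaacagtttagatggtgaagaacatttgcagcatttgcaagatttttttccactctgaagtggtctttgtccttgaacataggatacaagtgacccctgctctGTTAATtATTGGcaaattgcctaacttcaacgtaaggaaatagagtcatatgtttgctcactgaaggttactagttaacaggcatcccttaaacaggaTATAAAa
Afm: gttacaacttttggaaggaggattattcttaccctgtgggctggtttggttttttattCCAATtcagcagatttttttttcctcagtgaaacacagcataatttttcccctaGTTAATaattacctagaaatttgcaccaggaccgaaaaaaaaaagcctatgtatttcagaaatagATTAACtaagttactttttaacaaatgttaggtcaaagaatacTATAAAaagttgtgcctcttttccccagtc
All 3 promoters held GTTAAT, which occurred in 6.43% of the 32851 promoters of the same length in the table. The letters stand in the promoters of genes with much and with little polymerase, and whether they act in these tissues was not tested. Alb held 1 such match, 32 bases before the start, Afp held 1 at 105 bases, and Afm held 2, at 138 and 73 bases. CCAAT was found 2 times in Alb and in a single copy in Afp and Afm, against 33.8% of all promoters with it. TATAAA was found in Afp and Afm and in 12.4% of all promoters. TGTTTAC was in none of the 3 and in 3.17% of all promoters, and no match overlapped another. The G and C content was 39.2% in Alb and 33.2% in Afm, with Afp between them, below the lower quartile of all promoters, 45.2%.

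The libraries held 14964934 reads for liver, 13786536 for kidney, 10846976 for lung, 10292262 for brain and 13283124 for spleen. In folds, libraries were scaled by factors of 1.17 for liver, 1.09 for kidney, 1.13 for lung, 1.03 for brain and 0.671 for spleen. Against scaling by total reads, these factors differed by -0.66 on the log2 scale in spleen, 0.39 in lung, 0.33 in brain, -0.03 in liver and -0.01 in kidney, so folds over spleen depend most on the scaling. Genome-wide means were 5.66 reads per kb in liver, 5.22 in kidney, 4.11 in lung, 3.90 in brain and 5.03 in spleen.

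In liver, polymerase covered nearly all of Alb, while Afp lay near the level of its surroundings and Afm in between. The Alb body held 26148 reads in liver, against 238 in kidney, 237 in lung, 186 in brain and 256 in spleen. Liver stood far above the other libraries, which lay close to each other. Its scaled density was 58.6 times that of spleen, the next tissue (51.8 to 66.6). Scaled to library size, all of Alb had 1873 RPM in liver (95% exact binomial interval 1851 to 1895). It had 17.6 RPM in kidney, 22.7 in lung, 19.3 in brain and 20.4 in spleen.

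**Figure D1:**
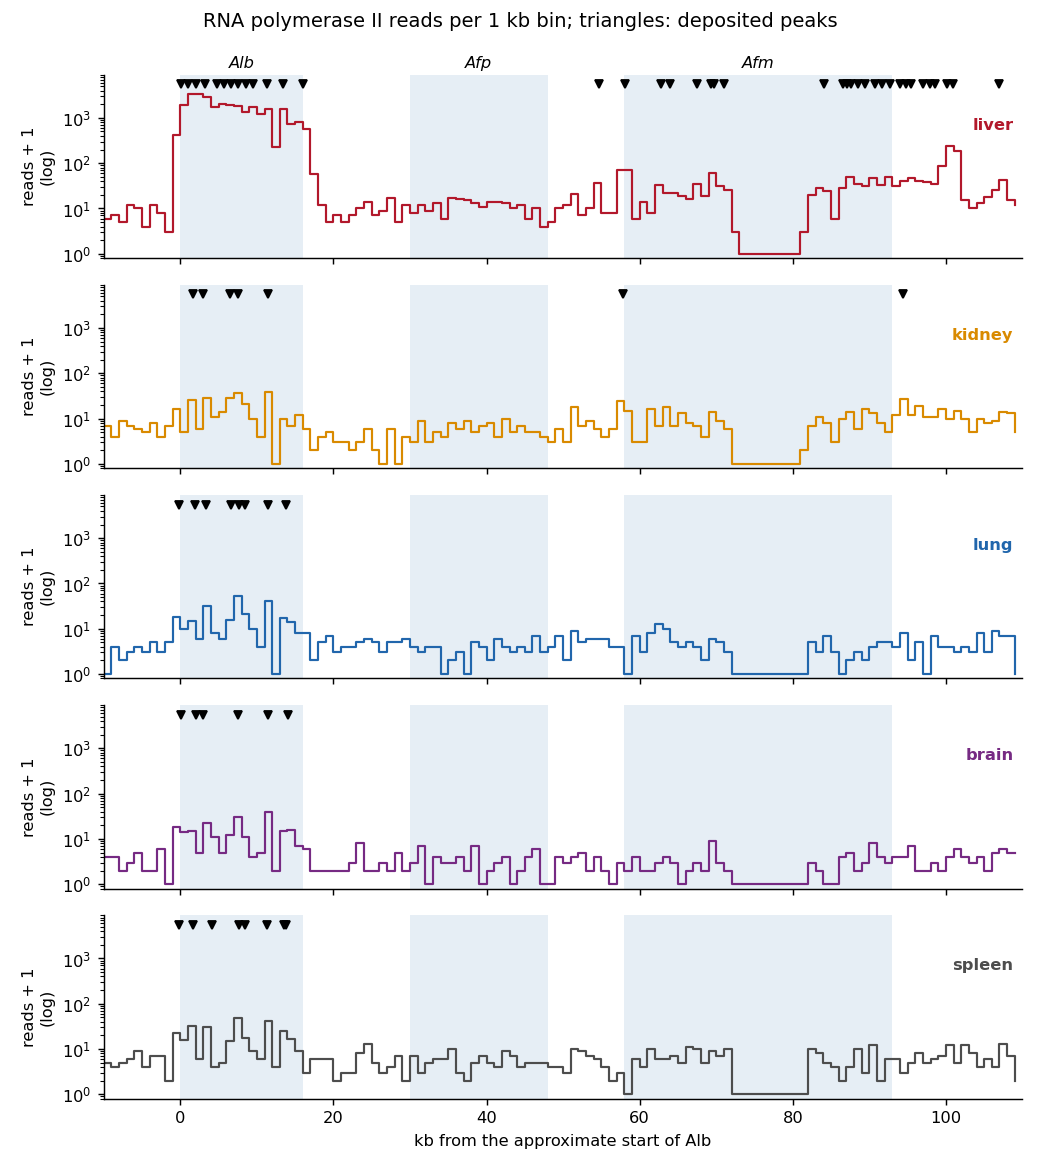
Reads per 1 kb bin plus 1 on a log scale across the 120 kb window, by distance from the approximate start of Alb, with 1 panel per library, the 3 genes shaded and the authors' peaks as triangles. Liver reached 3354 reads in a bin of Alb, and the gap in Afm held no read in any library.

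Bins were called liver-high when they held at least 20 liver reads and at least 4 times the scaled count of every other tissue. This held for 27 of the 120 bins, or 27 of the 50 bins with at least 20 liver reads. In the genome, 6.48% of bins with at least 20 liver reads met the rule, and 0.158% of all bins. Since the window was chosen for its liver reads, nothing is read from this difference. Of the 27 bins, 19 formed a single run over Alb from 90889001 to 90908000. No bin of the Afp promoter, body or 3′ flank was called, but only 1 of them, in the flank, held the 20 liver reads needed. Of the 34 bins of the Afm body 16 held that many, and 3 were called.

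Polymerase in Alb was densest just inside the gene and thinned towards its end. In liver, reads per 100 bp went up between 90889601 and 90889800, with 7 reads in the first 100 bp and 73 in the next. The 5 bins with the most liver reads all lay in the first 7 kb of the gene. They held 3354, 3326, 2868, 2059 and 1881 reads, at ranks 5, 6, 7, 11 and 13 among all bins of the genome by liver reads. The highest began 2 kb after the approximate start, where kidney, lung and spleen had 5 reads each and brain had 4.

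In 5 equal parts of Alb from start to end, liver density was 2885, 2089, 1666, 1124 and 995 reads per kb. Each part thus held less than the one before it. A gap without reads in any library, which begins in the bin from 90902001, lies mostly in the part with 1124 reads per kb. It lowers this value, and densities without the gap were not computed. The promoter held 2303 liver reads, against 19 in kidney, 26 in lung, 30 in brain and 37 in spleen, 35.7 times the scaled density of spleen (25.8 to 50.9). Within liver, promoter density was 0.661 times body density (0.633 to 0.689). Both values depend on the approximate bounds. Moved 1 kb up, they gave a promoter fold of 10.6 and a promoter density of 0.117 times body density. Moved 1 kb down, they gave 65.0 and 1.67.

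Past the end of Alb the liver signal ran on for a little over 1 kb and then stopped. The first bin after the end held 569 liver reads, the second 58 and the third 11. In windows of 100 bp, liver held 104 reads right after the end and 9 reads from 90906801 to 90906900. The 3′ flank as a whole held 648 liver reads, against 15 in kidney, 20 in lung, 9 in brain and 18 in spleen. From the end of this flank to the Afp promoter, 8 kb held 66 reads in liver, or 8.25 per kb, against 2.00 in kidney, 3.63 in lung, 2.38 in brain and 4.75 in spleen. After scaling, liver in this stretch was 0.997 times spleen (0.659 to 1.53), and 1.54 times the next tissue with scaling by total reads, so whether liver was higher there depends on the scaling.

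The adult Afp gene carried little polymerase. Its promoter held 18 reads in liver, against 5 in kidney, 8 in lung, 3 in brain and 7 in spleen. Its body held 178 reads in liver, against 87 in kidney, 42 in lung, 38 in brain and 74 in spleen. Liver was highest, but by far less than at Alb. The liver body was 1.38 times spleen after scaling (1.05 to 1.84). With scaling by total reads it was 1.88 times kidney, then the next tissue. With the genome mean subtracted, kidney, lung, brain and spleen were all below 0 and were set to 3 reads. Liver was then 15.6 times spleen, a value set by this floor and not a measured fold. The promoter fold, 1.48, had an interval of 0.588 to 4.18, so a difference was not detectable at this depth.

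Set against the mean of the same library, the Afp body was at 1.85 in liver (1.59 to 2.14), 0.981 in kidney, 0.602 in lung, 0.574 in brain and 0.866 in spleen. The 46 kb from 90830001 to 90876000, before the window, held 7.83 reads per kb in liver, 4.20 in kidney, 2.91 in lung, 2.43 in brain and 4.63 in spleen. Afp had 10.5 reads per kb in liver, 5.12 in kidney, 2.47 in lung, 2.24 in brain and 4.35 in spleen. With the 4 kb next to the window included, a stretch rich in liver reads, the 50 kb before the window held 11.5 reads per kb in liver, 4.28 in kidney, 2.78 in lung, 2.26 in brain and 4.64 in spleen. Whether liver lay higher in Afp than before the window thus depended on these 4 kb, and the differences between Afp and these stretches were not tested. The authors' liver list had 7 peaks in the 50 kb, not all of them in the 4 kb, so the 46 kb also held liver peaks. In liver, Alb body density was 166 times that of Afp (144 to 194). It was 99.6 times with 1 read per position and strand, and 362 times with the genome mean subtracted. The Alb body held 26148 liver reads on 30000 positions of both strands. Keeping 1 read per position can thus also remove reads of different molecules there, by an amount that was not tested. Along Afp 5 equal parts held 23 to 44 reads each with no high end. The authors' lists held no peak in the Afp promoter, body or 3′ flank in any of the 5 tissues.

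**Figure D2:**
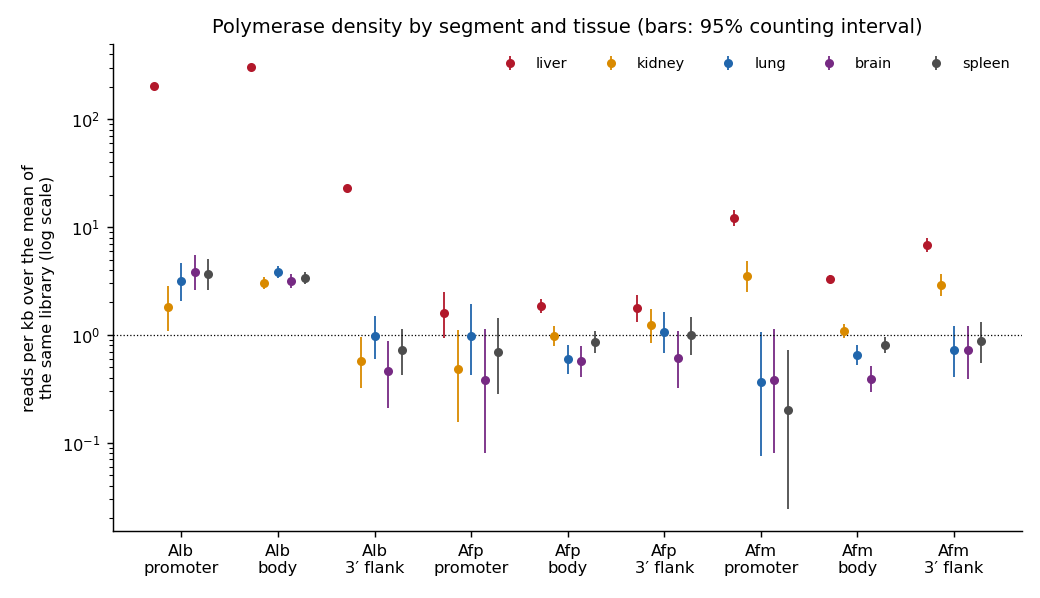
Reads per kb in the promoter, body and 3′ flank of each gene over the mean reads per kb of the same library, on a log scale, with points for single libraries, bars for 95% counting intervals and a dotted line at the library mean. The Alb body stood at 308 in liver, and the Afp body at 1.85.

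Afm was loaded in liver and, at its promoter and past its end, also in kidney. The promoter held 138 reads in liver and 37 in kidney, against 3 in lung, 3 in brain and 2 in spleen. Liver was 3.48 times kidney after scaling (2.41 to 5.15). Kidney was 7.58 times spleen (2.40 to 38.4), whose 2 reads were set to a floor of 3, and 11.9 times with scaling by total reads. Liver and kidney were thus both above the remaining 3 libraries, and both lists had a peak there, at 90948071 in liver and 90947841 in kidney. No other tissue had a peak at Afm.

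In both libraries the Afm promoter was denser than the body. Promoter density over body density was 3.65 in liver (3.02 to 4.40) and 3.26 in kidney (2.23 to 4.65). With the bounds moved 1 kb up or down, the liver ratio was 1.98 or 1.86. The authors' lists had 15 peaks in the Afm body in liver and 0 in kidney. The body held 642 reads in liver, against 193 in kidney, 91 in lung, 52 in brain and 138 in spleen. Liver was 2.67 times spleen, the next tissue (2.22 to 3.23), and 3.11 times kidney. Relative to the library mean, the body was at 3.33 in liver and 1.09 in kidney (0.940 to 1.25). Bins without a read in any library are part of the body and lower both values, so outside them kidney was above 1.09. The kidney ratio has this low body below the line, and the same bins raise both ratios. With the genome mean taken off, the body in liver was 27.0 times kidney. The mean was also taken off over the bins without reads, which removes too much from kidney and inflates this fold. Kidney was 0.859 times spleen in the body (0.687 to 1.08), but 1.35 times with scaling by total reads (1.08 to 1.69), so its direction depends on the scaling.

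Part of the Afm body gave no reads. The 8 bins from 90963001 to 90971000 held no read in any library, which lowers the mean density of the body. Without these bins, promoter over body density in liver was 2.79. The bins next to them on both sides held 2 liver reads each and were kept, so this ratio is still raised. Bins that are empty in every library alike carry no information on a tissue. In Alb the bin from 90902001 to 90903000 was low in the same way, with 231 liver reads against 0 in kidney, 0 in lung, 1 in brain and 3 in spleen.

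Liver reads in Afm were highest in the bins on both sides of its start, with 70 and 68 reads, and no bin of the body held more than 61. In 5 equal parts of Afm from start to end, liver density was 23.9, 28.4, 0.286, 10.9 and 38.0 reads per kb, and the low values are those of the parts that hold the bins without reads. The 3′ flank held 194 reads in liver and 76 in kidney, against 15 in lung, 14 in brain and 22 in spleen. Its density was 2.05 times that of the body in liver (1.74 to 2.42) and 2.68 times in kidney (2.03 to 3.51). Both are raised by the bins of the body without reads. With these left out, the liver ratio was 1.57 (1.33 to 1.85), still raised by the nearly empty bins beside them. Kidney in this flank was 2.12 times spleen (1.31 to 3.58), or 3.33 times with scaling by total reads, and its list had a peak at 90984436.

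**Figure D3:**
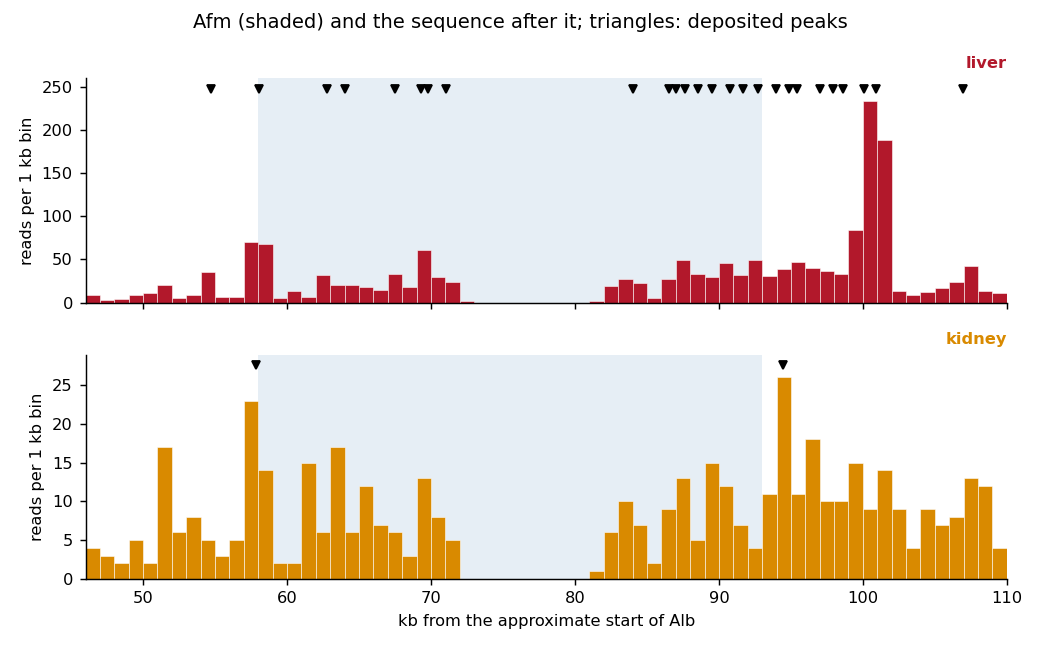
Reads per 1 kb bin in liver and kidney over Afm (shaded) and its surroundings, by distance from the approximate start of Alb, on axes of different range and with the authors' peaks as triangles. Both libraries had reads at the start of Afm, and liver reached 233 reads in a bin after its end.

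The largest liver signal of this end of the window lay beyond Afm. The 3 bins from 90989001 to 90992000 held 505 reads in liver, against 38 in kidney, 8 in lung, 9 in brain and 21 in spleen. Liver was 12.4 times kidney (8.92 to 17.8). These bins were picked by the rule for liver-high bins, so the fold is a description. Liver peaks lay at 90990091 and 90990941. In RefSeq on GRCm38.p6 the genes after Afm are the pseudogene Gm2602 and then Albfm1, a further member of the albumin family. The peaks were not assigned to either, since no annotation of this build was used.

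Single spots outside the genes were also liver-high. The bin from 90944001 to 90945000, before Afm, held 36 reads in liver, 5 each in kidney, lung and spleen and 3 in brain, with a liver peak at 90944721. Just before the window, the 4 kb from 90876001 to 90880000 held 217 reads in liver, against 21 in kidney, 5 in lung, 1 in brain and 19 in spleen. This stretch was 6.56 times spleen in liver (4.10 to 11.1) and had liver peaks at 90876941, 90878141 and 90879091. It lies well upstream of Alb, where an enhancer of Alb is known, and whether these reads belong to it was not tested. Between it and the Alb promoter, the first 9 kb of the window held 58 reads in liver, against 48 in kidney, 21 in lung, 20 in brain and 40 in spleen.

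The authors' lists placed 39 peaks in the window in liver, 7 in kidney, 8 in lung, 6 in brain and 8 in spleen. A window of this length holds 2.63 peaks on average in the liver list, 3.70 in kidney, 3.31 in lung, 4.17 in brain and 1.44 in spleen. The liver peaks fell into 13 at Alb and 21 at Afm, and 5 lay outside the genes and their flanks. Those at Alb ran from 90890091 to 90906091 with a median spacing of 1050 bp. The peaks of the other tissues were at Alb: 5 of 7 in kidney, 8 of 8 in lung, 6 of 6 in brain and 8 of 8 in spleen.

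These Alb peaks outside liver lay in or beside short blocks of reads. Within the Alb promoter and body, reads of kidney, lung, brain and spleen gathered in 13 blocks of 43 to 225 bp, with 332 to 2390 bp between them. A block is a stretch of at least 40 bp covered by reads of at least 3 of these 4 tissues and by at least 10 of their reads in all. Covered stretches with at most 30 bp between them were joined. The rule was set after the data were seen, and it found 1 further block in the rest of the window, at 90997168 to 90997250. All 27 Alb peaks of the 4 tissues lay within 190 bp of a block. Of the 13 liver peaks at Alb, 9 lay within 250 bp of a block and the farthest 844 bp away. The share of Alb that lies within 250 bp of a block was not computed, so nothing is read from this count. Blocks and peaks of the 4 tissues come from the same libraries, so their closeness is built in. Inside a block lay 1 peak of liver, 0 of kidney, 1 of lung, 1 of brain and 1 of spleen.

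Blocks were also defined without the tissue whose reads were then counted in them. The rule was looser here than coverage by 3 tissues, since these blocks were longer: 1609 bp in all for kidney, against 1448 bp for the 13 blocks. Blocks from the other 3 tissues covered 9.46% of the Alb promoter and body for kidney and held 56.8% of its reads there (exact binomial interval 50.5% to 63.0%). Such blocks held 67.3% of the reads in lung (61.3% to 72.9%), 69.0% in brain (62.4% to 75.1%) and 71.3% in spleen (65.8% to 76.4%). In liver, the 13 blocks held 12.0% of reads on 8.52% of the length. Density inside the blocks was 1.47 times that between them in liver, 14.1 times in kidney, 23.3 in lung, 23.9 in brain and 25.4 in spleen. The blocks were chosen on the reads of kidney, lung, brain and spleen, so these high ratios and their contrast with liver are built in and describe the blocks only.

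**Figure D4:**
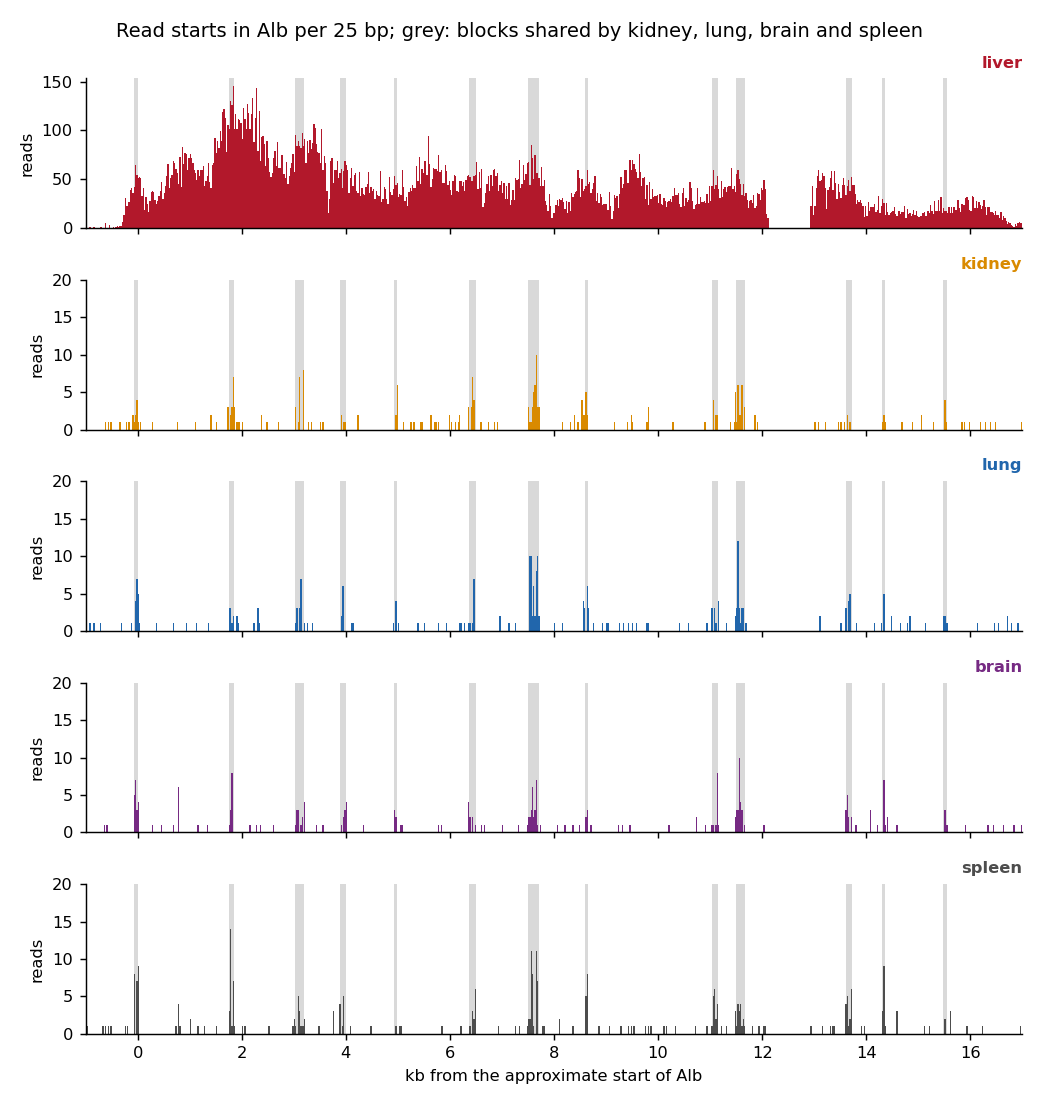
Read starts per 25 bp in Alb, by distance from its approximate start, with the 13 blocks in grey and an axis for liver that differs from the range shared by the others. Liver reads cover the gene but for a gap within the low bin from 90902001, and reads of kidney, lung, brain and spleen stand mainly in the blocks.

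The block with the most reads of these 4 tissues ran from 90897493 to 90897717 and held 567 reads in liver, 35 in kidney, 50 in lung, 27 in brain and 43 in spleen. The block at the start of Alb, from 90889941 to 90890013, held 171 reads in liver, 7 in kidney, 16 in lung, 19 in brain and 21 in spleen. Many block reads repeated the position and strand of a read already counted. In blocks this share was 48.0% in liver, 41.8% in kidney, 46.1% in lung, 41.6% in brain and 46.6% in spleen. Between blocks it was 42.8% in liver, where reads are nearly as many as positions, 13.5% in kidney, 12.0% in lung, 17.9% in brain and 11.5% in spleen. Alb has many short exons parted by introns. Whether the blocks are exons was not tested, since exon positions of this build were not used.

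Between the blocks, Alb held 1609 reads per kb in liver, against 7.14 in kidney, 5.34 in lung, 4.31 in brain and 5.59 in spleen. This was 284 times the library mean in liver, 1.37 times in kidney, 1.30 in lung, 1.11 in brain and 1.11 in spleen. With the blocks left out, a step added with the profiles in view, the Alb body in liver was 185 times the next tissue instead of 58.6 times. The promoter fold was then 76.5 instead of 35.7. Both had to go up, because the blocks are where the other tissues have their reads. No block met the rule at Afp or Afm.

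The tissue pattern of Alb was set against that of other stretches of the genome. Of all scaled reads in the Alb body, 95.8% were in liver, 0.933% in kidney, 0.895% in lung, 0.771% in brain and 1.63% in spleen. Outside the window, 1039 tiles of 16 kb held at least 500 liver reads, and likeness was the summed absolute difference of these 5 shares. The closest tile, on chromosome 7 from 31712001 to 31728000, differed by 0.998 percentage points and held 1956 liver reads. The next, on chromosome 8 from 112512001 to 112528000, differed by 3.24 points and held 13247 liver reads, 97.4% of its scaled reads being in liver. The others, on chromosome 7 from 26992001 and from 26960001 and on chromosome 18 from 65408001, differed by 5.65, 5.91 and 6.21 points. By liver reads, the tiles over the start and the end of Alb ranked 2 and 4 in the genome. The tile at rank 1, on chromosome 2 from 98496001, was high in every library. It held 22740 reads in liver and 47221 in spleen, with 14.1% of its scaled reads in liver.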

How the data were processed

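Polymerase occupancy was measured by chromatin immunoprecipitation and sequencing in 5 tissues, 1 library each. The authors deposited a list of aligned reads (chromosome, start, end, strand) and a list of peak positions, on a grid of 5 bp without width or score, for each library. Reads were aligned with Bowtie, as listed in the submitters' processing notes. Its version and settings, the build, the peak caller and any threshold: not given in the sources used here. In each library 4 to 15 lines were dropped for a length below 34 or above 36 bases. Reads were counted at the 5′ end, repeated reads included.

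Scaling factors were medians of ratios over 8222 merged peak regions (peaks extended by 250 bp) with at least 20 reads in every tissue. Folds set counts under 3 to 3, with Clopper-Pearson intervals conditional on the summed reads. Intervals of single densities are exact Poisson. No p-value was computed. Named are all 3 genes with their segments, the 5 bins with most liver reads and the 5 tiles most like Alb; the runs, blocks and kidney values were added after the data were seen. The members, lists and alternatives were chosen with earlier results of these data known. Software was SciPy 1.17.1, pandas 2.3.3 and NumPy 2.4.6 under Python 3.11.15, with figures from Matplotlib 3.10.9. RefSeq tables on GRCm38.p6 gave gene order and promoter sequence; their coordinates were not used. All 3 genes matched by symbol. Tissue labels were not checked against marker genes, since no annotation of the build was used.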

Additional observations from a re-analysis of the deposited data

How the results depend on the processing

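Folds are liver over the next tissue and density ratios are within liver. No paired analysis was possible because each tissue had 1 library, and for the same reason no library could be left out. Scaling by total reads gave folds of 80.0 for the Alb body, 52.8 for its promoter and 1.88 for the Afp body. Counting 1 read per position and strand gave 51.4 for the Alb body. Density ratios were then 0.103 for Alb 3′ flank over body, 55.1 for Alb over Afm bodies and 99.6 for Alb over Afp bodies. In the Alb body liver reads are nearly as many as positions, so this count can also remove reads of different molecules. Bounds moved 1 kb up gave an Alb promoter fold of 10.6 and ratios over body of 0.117 for the Alb promoter, 0.158 for the Alb 3′ flank and 1.98 for the Afm promoter. Bounds moved 1 kb down gave folds of 65.0 for the Alb promoter and 2.65 for its 3′ flank. Ratios over body were then 1.67 for the Alb promoter, which turned round, 0.0106 for the Alb 3′ flank and 1.86 for the Afm promoter, and Alb over Afm bodies was 79.4. Subtracting the genome mean gave folds of 82.9 for the Alb body and 27.0 for the Afm body. It gave 119 for the Alb 3′ flank and 15.6 for the Afp body, where the other tissues fell below 0 and were set to 3 reads. Both values are set by that floor and are not measured folds. The subtraction gave ratios of 4.79 for Afm promoter over body, 2.51 for Afm 3′ flank over body, 131 for Alb over Afm bodies and 362 for Alb over Afp bodies. In the Afm body it also covered bins without reads, which inflates the fold of this body and the ratios over it. A promoter of 500 bp to both sides gave an Alb promoter fold of 24.3 and ratios over body of 0.630 for Alb and 6.36 for Afm. A 3′ flank of 2 kb gave folds of 51.4 for Alb and 1.77 for Afm, and 0.180 for Alb 3′ flank over body. Leaving out the blocks gave folds of 185 for the Alb body and 76.5 for its promoter. Leaving out bins without reads gave ratios of 2.79 for Afm promoter over body and 1.57 for Afm 3′ flank over body. Alb over Afm bodies was then 70.6. Nearly empty bins beside them were kept, so these ratios are still raised. The last 2 alternatives were chosen after seeing the data. Liver-high bins numbered 27, and 20 to 29 under the alternatives. With 1 read per position, blocks held 47.0% of Alb reads in kidney, 57.1% in lung, 61.3% in brain and 58.8% in spleen. The cause of these shifts was not tested. Single libraries, approximate bounds and low counts at Afp limit the comparisons.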
